A study of Mus musculus with 23 samples.

Results

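T-cell acute lymphoblastic leukemia (T-ALL) that arose from transplanted wild-type thymus was compared between cases with much and cases with little RNA of Il2ra, the gene of CD25. Of the 23 libraries sequenced, 14 were from such leukemias (WT T-ALL). They were chosen by their label and ranked on their measured Il2ra value, and the 7 highest (Il2ra-high) were set against the 7 lowest (Il2ra-low). These sets were made from a measured level and are not groups of the study, so Il2ra itself is described without a test. All other genes were compared between the sets and, beside that, along the whole range of Il2ra. Every WT T-ALL library came from the unfractionated spleen of a diseased BALB/c mouse of the genotype Rag2-/-Il2rg-/-, which had received 1 lobe of newborn thymus under the kidney capsule as a young adult. By the study's methods the donors were B6.SJL-Ptprca Pep3b/BoyJ mice, which carry CD45.1. Leukemic cells thus have intact Rag2 and Il2rg, and the host cells of the same spleen lack both. Each leukemia arose in its own recipient, and libraries are named by the number in their label. The 6 libraries of normal C57BL/6 thymus and the 3 of T-ALL from Notch3-/- donor thymus in the same kind of host (Notch3 KO T-ALL) are given as values beside them. No age was used here for the thymus controls.

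CD25 is the alpha chain of the high-affinity receptor for interleukin-2 and pairs with the beta chain (Il2rb) and the common gamma chain (Il2rg). In the thymus it is a stage marker. Progenitors gain CD25 while they are still CD44+ and Kit+ and lack CD4 and CD8 (double-negative stage 2), keep it while they lose CD44 and Kit and rearrange the T-cell receptor beta gene with Rag1 and Rag2 (stage 3), and lose it after the pre-T-cell receptor, which contains the product of Ptcra, has signaled. Notch1 signaling drives these steps, and Il2ra and Ptcra are known targets of it. Outside the thymus CD25 also marks regulatory T cells, which depend on Foxp3, and activated T cells.

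All values are log2(scaled RPKM + 1), where RPKM is a read number per length of transcript and library size, and each library had been scaled to a 75th percentile of 10. A difference between sets is a difference of mean log2 values, and 1 stands for a doubling of the scaled RPKM + 1, so that changes of low genes are understated. Between 10154 and 11011 genes per WT T-ALL library reached a scaled RPKM of at least 1. Libraries 14, 36 and 48 stood apart from the other 11. In these 3, genes with GC-rich transcripts were low and AT-rich ones high, by -0.23, -0.21 and -0.24 on the log2 scale per 10% of GC content, against -0.12 to 0.46 in the other 11, and they lay together on the second principal component. Libraries 36 and 48 hold the highest Il2ra values, and the GC slope ran downward with Il2ra (Pearson r = -0.55, permutation p = 0.0400; Spearman rho = -0.71, permutation p = 0.00578; adjusted p for r = 0.147 over 11 library measures; r = -0.55 without libraries 36 and 120, the 2 farthest from the median of Il2ra). Among genes with an unadjusted slope p under 0.05 the median GC content was 44.4% for those that went up with Il2ra and 53.9% for those that went down, against 49.6% over all genes tested. Counts of the lists are therefore also given with the GC slope as a covariate, and so are some genes. Library 7 of the Il2ra-low set stood apart too, with 45.9% of its signal in mitochondrial genes against 10.3% to 20.9% in the other 13. The labels name no batch.

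Il2ra spanned a wide and continuous range. In the Il2ra-high set the lowest, median and highest log2 values were 4.42, 5.91 and 8.23, and in the Il2ra-low set they were 0.71, 3.89 and 4.38. In scaled RPKM, library 36 had 300.0 and library 120 had 0.631. At the border of the sets, library 3 with 4.42 and library 14 with 4.38 differed by only 0.04, so the split falls in the middle of a run of 6 libraries between 3.89 and 4.50 and not at a gap. Normal thymus lay between 3.78 and 5.57. By Il2ra, 5 WT T-ALL libraries were above every thymus library, 3 were below every one, and 6 lay within the range of thymus. The Notch3 KO T-ALL libraries had 0.32, 1.23 and 3.79, which is inside the range of the Il2ra-low set or below it.

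**Figure D1:**
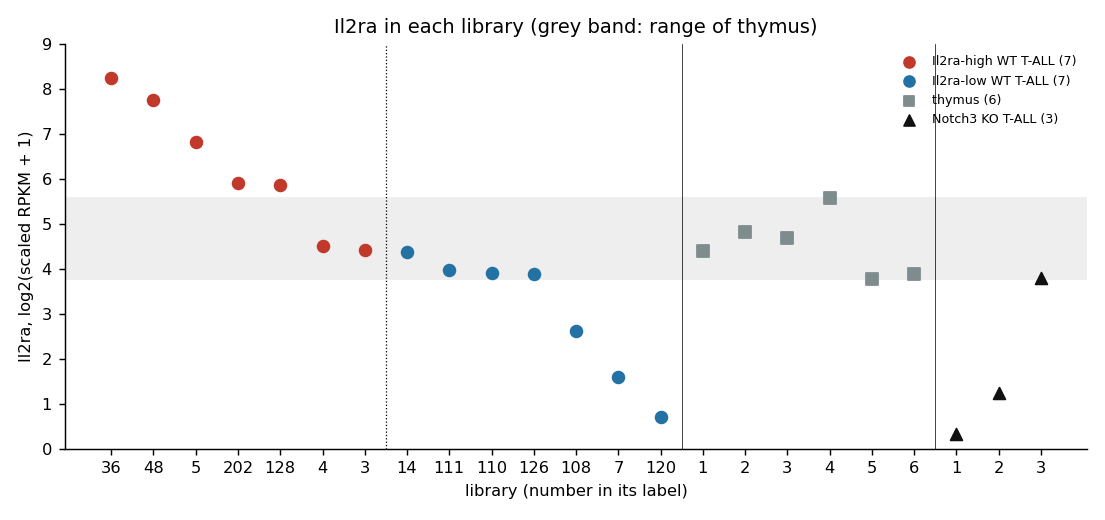
Il2ra as log2(scaled RPKM + 1) in each of the 23 libraries, named by label number, with WT T-ALL ordered by value and the dotted line at the split. WT T-ALL runs from 8.23 in library 36 to 0.71 in library 120 with no gap at the split, and the grey band marks the thymus range of 3.78 to 5.57.

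Between the sets, no gene passed the test, from which Il2ra itself was left out. Of 11475 genes tested with limma, 0 had a Benjamini-Hochberg adjusted p under 0.05 (0% called), and the smallest adjusted p was 0.353. At an unadjusted p under 0.05 there were 697 genes (6.07%), 336 higher (2.93%) and 361 lower (3.15%) in the Il2ra-high set. Along the continuous range of Il2ra 1 gene passed (0.00871%), and 1436 had an unadjusted p under 0.05 (12.5%), 890 of them going up with Il2ra (7.76%) and 546 down (4.76%). With the GC slope of the library as a covariate 0 genes passed in either fit, and the numbers at an unadjusted p under 0.05 were 513 (4.47%) for the sets, 1.99% of all genes higher and 2.48% lower, and 609 (5.31%) for the slope, 3.25% up and 2.06% down. The excess of genes going up turned in other fits, with 278 up and 353 down with the T cell content score as a covariate and 297 up and 326 down with libraries 14, 36 and 48 as a batch term. At an unadjusted slope p under 0.01 there were 421 genes (3.67%). Single libraries moved these numbers. At an unadjusted p under 0.05 the slope had 792 genes without library 36 and 831 without library 48, with 0 passing in either, and the sets had 408 without library 36 and 1237 without library 14. Every gene other than Lmo4 named below is therefore given as a value that did not pass the adjusted test in the main comparison. When the 4 middle libraries were left out and the 5 highest were set against the 5 lowest, 4 genes passed (0.0349%), 3 of them higher (0.0261%) and 1 lower (0.00871%). The unadjusted p was under 0.05 for 1706 genes (14.9%), 9.32% higher and 5.54% lower. In this fit the GC slope ran from -0.24 to -0.01 in the 5 highest libraries, which include 36 and 48, and from -0.03 to 0.46 in the 5 lowest. It was not run with the GC slope as a covariate.

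The gene that passed along the slope was Lmo4 (chr3:144188530-144205255, GRCm38.p6), which encodes a LIM-domain adaptor protein that binds other LIM and LDB1 cofactors. Its lowest, median and highest log2 values were 5.97, 7.58 and 8.24 in the Il2ra-high set and 5.30, 6.43 and 6.74 in the Il2ra-low set. The sets overlapped, with 5 of 7 Il2ra-high libraries above every Il2ra-low one. Mean scaled RPKM was 170 ± 82.7 (SD, n = 7) against 77.5 ± 24.5 (SD, n = 7). Lmo4 rose by 0.34 ± 0.05 (SE) per log2 unit of Il2ra, with an adjusted p of 0.0340 by limma. Pearson r was 0.89 (permutation p = 3e-05) and Spearman rho 0.83 (permutation p = 0.00043), and r was 0.80 without libraries 36 and 120. The size of the slope hardly moved when any single library was left out (0.32 to 0.36), but the adjusted p ran from 0.0177 to 0.526 and Lmo4 kept its call in 5 of these 14 fits. It was lost without library 5, 7, 36, 48, 110, 111, 120, 126 or 202. Within the 11 libraries other than 14, 36 and 48 the slope was 0.34 with an adjusted p of 0.560, and with the GC slope as a covariate it was 0.34 with an adjusted p of 0.570. In thymus Lmo4 lay between 5.13 and 5.73, below every WT T-ALL library except library 120, and in Notch3 KO T-ALL it was 6.86, 6.05 and 6.25.

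The other genes most like Il2ra by Pearson r over the 14 libraries, among genes with a mean scaled RPKM of at least 5, were Cd5, Gnpda2, Zfp51 and Cd6. CD5 and CD6 are related surface receptors of T cells whose genes lie side by side on chromosome 19, and CD5 is known to restrain signaling of the T-cell receptor. Cd5 was 4.74, 5.07 and 5.70 (lowest, median and highest) in the Il2ra-high set and 4.03, 4.48 and 4.71 in the Il2ra-low set, so the sets did not overlap. Its r was 0.86 (permutation p = 0.0001), its rho 0.91 (permutation p = 3e-05), and r was 0.87 without libraries 36 and 120, but the limma slope of 0.19 ± 0.04 (SE) had an adjusted p of 0.173. Both Cd5 and Cd6 were higher in every thymus library (Cd5 6.41 to 6.77) than in any WT T-ALL library. Cd6 was 4.21, 5.08 and 5.50 against 3.71, 4.36 and 4.84 (r = 0.83, permutation p = 0.00035; rho = 0.79, permutation p = 0.0014; adjusted slope p = 0.208). Gnpda2, which encodes an enzyme of amino sugar metabolism, had an r of 0.85 (permutation p = 0.00011; rho = 0.81, permutation p = 0.00083; r = 0.72 without libraries 36 and 120), and Zfp51, a zinc-finger gene, had 0.84 (permutation p = 0.00018; rho = 0.81, permutation p = 0.00079; r = 0.84 without them). The slopes of these last genes had adjusted p-values of 0.118 and 0.208, and both transcripts are AT-rich, with 39.2% and 38.5% GC. With the GC slope of the library as a covariate the slope of Gnpda2 went from 0.26 to 0.20 and that of Zfp51 from 0.20 to 0.13, while Cd5 and Cd6 kept 0.18 and 0.20.

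Genes that ran most against Il2ra by the same rule were Rad54l (r = -0.80), Ppp2r1b (r = -0.80), Pip4k2c (r = -0.79), Dna2 (r = -0.78) and Mfsd2b (r = -0.76), with permutation p-values between 0.00042 and 0.00197 and adjusted slope p-values between 0.208 and 0.232. Rad54l and Dna2 serve repair and replication of DNA by homologous recombination and end processing, Ppp2r1b is a scaffold subunit of protein phosphatase 2A, and Pip4k2c is a lipid kinase. Rad54l was 3.13, 3.77 and 4.23 in the Il2ra-high set and 3.57, 4.07 and 4.25 in the Il2ra-low set. Libraries 36, 48 and 5 lay below every Il2ra-low library, and the other 4 of the Il2ra-high set lay within the range of the Il2ra-low set. Mfsd2b, the exporter of sphingosine-1-phosphate of red cells and platelets, was 1.52, 1.94 and 3.43 against 2.34, 2.87 and 4.01.

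**Figure D2:**
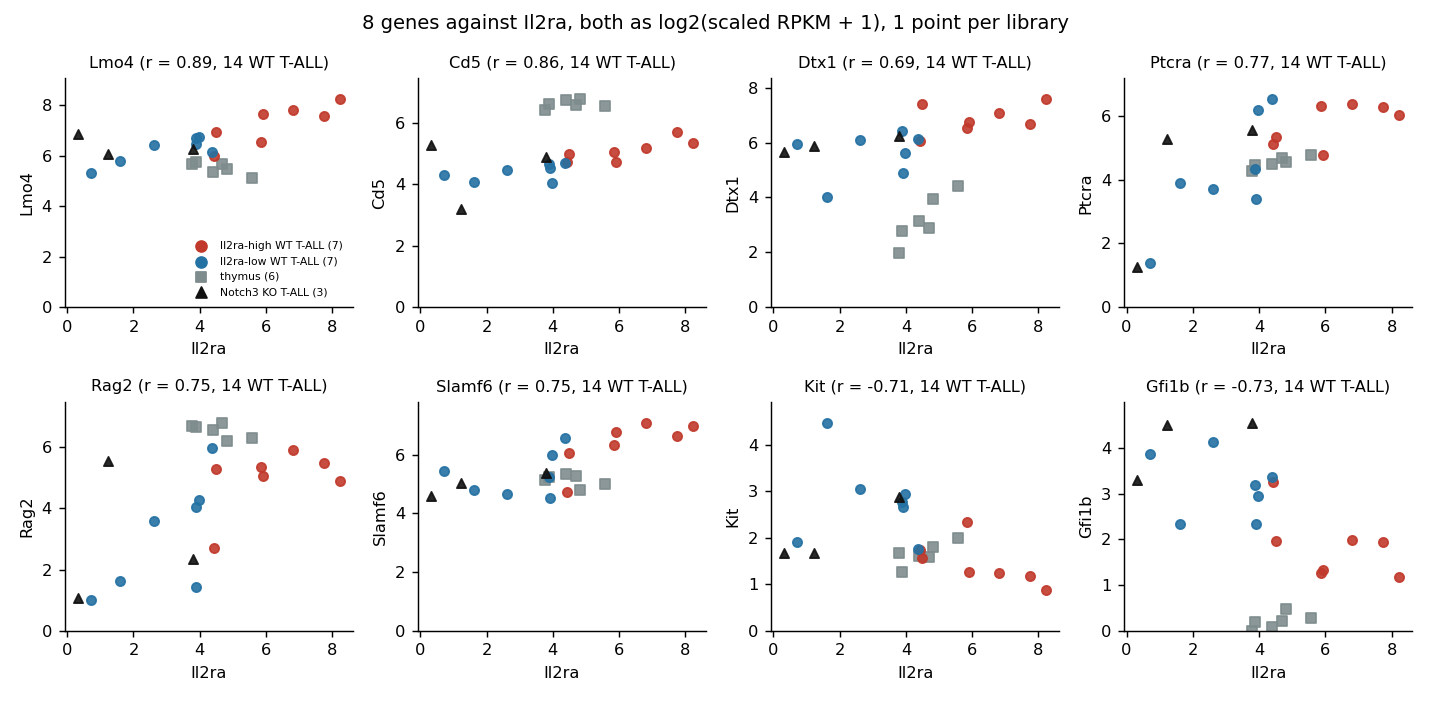
Log2(scaled RPKM + 1) of 8 genes (vertical axes) against Il2ra (horizontal axes), 1 point per library, with Il2ra-high and Il2ra-low WT T-ALL in red and blue, thymus as grey squares and Notch3 KO T-ALL as black triangles. Lmo4 and Cd5 climb along the whole range of WT T-ALL (r = 0.89 and 0.86), whereas Rag2 and Ptcra are high in nearly all libraries above the middle and scatter below it, and Gfi1b and Kit are low at high Il2ra.

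In 8 genes every Il2ra-high library was above every Il2ra-low one (0.0697% of genes tested), and in 3 every one was below (0.0261%). Of these 11 genes (0.0959%), 9 met the rule for naming. Besides Cd5 the higher ones were Hectd2, Bivm, Rfx5, Dzip3, Tnks2 and Irf3. The largest difference was that of Hectd2, which encodes a HECT-domain ubiquitin ligase, with 2.09, 2.69 and 3.62 in the Il2ra-high set and 0.55, 1.39 and 1.97 in the Il2ra-low set (1.40 ± 0.28 SE, adjusted p = 0.489 by limma, and 1.24 with the GC slope as a covariate). Rfx5, a subunit of the factor that binds promoters of MHC class II genes, was 3.28, 3.57 and 3.98 against 3.00, 3.07 and 3.15. Irf3, a transcription factor of the type I interferon response, was 4.85, 5.05 and 5.50 against 4.26, 4.66 and 4.84. Tnks2, the poly(ADP-ribose) polymerase tankyrase 2, was 5.65, 5.91 and 6.45 against 5.26, 5.42 and 5.59. Apart from Hectd2 and Cd5 these differences were small, from 0.46 to 0.66, and adjusted p-values of the 7 higher genes lay between 0.489 and 0.644. Lower in the Il2ra-high set were Emilin2, an extracellular matrix glycoprotein (0.87, 1.79 and 2.29 against 2.39, 3.03 and 5.11; adjusted p = 0.629), and Cyp20a1, a cytochrome P450 gene (2.00, 2.40 and 2.51 against 2.57, 2.71 and 3.00; adjusted p = 0.708). The highest Emilin2 value, 5.11, was that of library 110, which also had the highest neutrophil marker score of all 14 at 10.30. The difference of Emilin2 went from -1.61 to -0.97 with that score as a covariate.

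**Figure D3:**
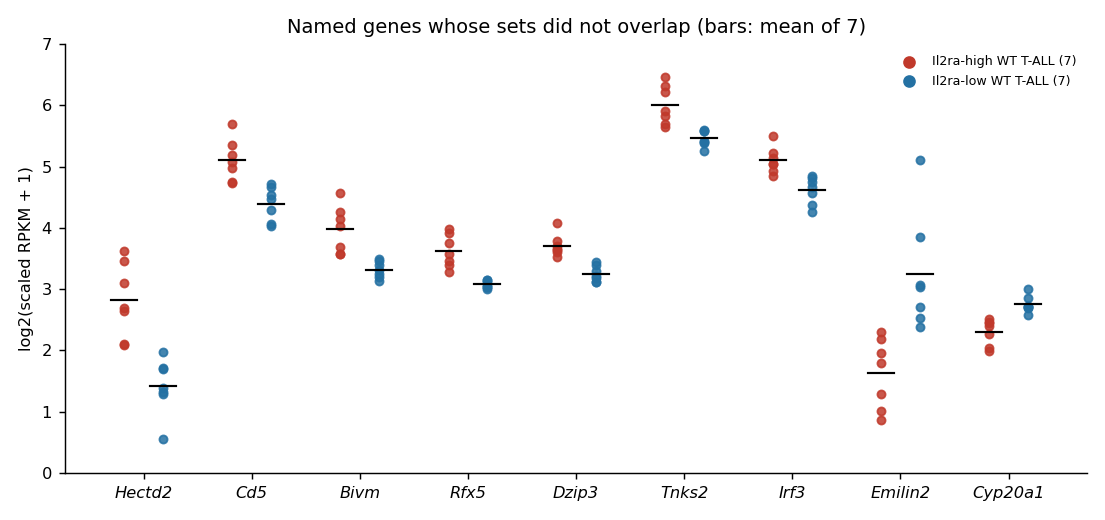
Log2(scaled RPKM + 1) of the 9 named genes whose sets did not overlap, with 7 Il2ra-high (red) and 7 Il2ra-low (blue) libraries each and a bar at the mean. The sets are separate for every gene shown, most widely for Hectd2 (1.40) and Emilin2 (-1.61), and none of the 9 had an adjusted p under 0.05.

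Of the partner chains of CD25, Il2rg was 6.05, 6.80 and 7.29 in the Il2ra-high set and 5.96, 6.46 and 6.62 in the Il2ra-low set. It tended upward with Il2ra (r = 0.68, permutation p = 0.00805; rho = 0.67, permutation p = 0.0117; r = 0.86 without libraries 36 and 120), with an adjusted slope p of 0.250. Host cells lack Il2rg, so its value in whole spleen also depends on the share of leukemic cells. Its difference went from 0.41 to 0.23 with the T cell content score as a covariate. Il2rb overlapped fully, at 2.51, 4.01 and 4.74 against 2.11, 3.68 and 5.13, with a difference of 0.06 ± 0.49 (SE). Il15ra, the alpha chain for interleukin-15 and the neighbor of Il2ra on chromosome 2, was 1.83, 2.60 and 3.35 against 1.28, 1.95 and 2.66 (0.65 ± 0.27 SE, adjusted p = 0.790). Il2, the ligand, had a median of 0.00 in both sets. Over the IL-2 family 8 of 12 listed genes were tested, 5 were higher and 3 lower in the Il2ra-high set, and the median difference was 0.14, against 0.02 over all genes tested, of which 53.6% were higher. The IL-2 family count was 6 and 2 with the GC slope as a covariate. Genes of JAK kinases, STAT factors and the STAT5 response, which act downstream of these receptors, were split 10 higher and 10 lower with a median of 0.02, and 12 and 8 with the GC slope as a covariate. Stat5a differed by 0.04 ± 0.24 (SE) and Jak3 by -0.17 ± 0.24 (SE). Cish, a STAT5 target, was 0.00, 0.48 and 2.52 against 0.60, 1.56 and 4.64, and Socs2, another, was 0.18, 0.49 and 2.65 against 0.52, 0.97 and 3.15, so neither was higher with Il2ra (r = -0.06, permutation p = 0.845, rho = -0.30, permutation p = 0.295; and r = -0.05, permutation p = 0.878, rho = -0.35, permutation p = 0.223).

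Within 1 Mb of Il2ra (chr2:11642792-11693194, GRCm38.p6) the table listed 11 other genes, of which 7 were expressed enough to test. Of these, 5 were higher and 2 lower in the Il2ra-high set, with a median difference of 0.08, and 4 were higher and 3 lower with the GC slope as a covariate. Il15ra had the largest difference (above). Prkcq, the protein kinase C theta of T-cell receptor signaling, was 4.73, 5.08 and 5.80 against 4.60, 4.97 and 5.34 (r = 0.65, permutation p = 0.011; rho = 0.54, permutation p = 0.0481; r = 0.69 without libraries 36 and 120), and it did not pass the adjusted test. Rbm17, a splicing factor, differed by 0.14 ± 0.21 (SE), Pfkfb3 by -0.17 ± 0.26, Fbxo18 by 0.08 ± 0.19, Fam188a by 0.08 ± 0.13 and Ankrd16 by -0.00 ± 0.22. Itga8 was between 0.00 and 0.13 in all 14 libraries and was not tested.

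Regulatory T-cell genes gave a mixed picture. Foxp3 was between 0.00 and 0.24 in every WT T-ALL library, against 0.60 to 1.27 in thymus, and was below the filter. Of 11 listed genes tested, 6 were higher and 5 lower in the Il2ra-high set, with a median difference of 0.00. With the GC slope as a covariate 7 were higher and 4 lower and the median was 0.46. At an unadjusted p under 0.05, 3 of 11 were higher and 0 lower, against 2.93% and 3.15% of all genes, both between the sets and, against 7.76% and 4.76%, along the slope. The slope count was 1 of 11 up and 0 down with the GC slope as a covariate, against 3.25% and 2.06% of all genes. Nrp1, Ikzf2 and Lrrc32, which also occur outside regulatory T cells, were higher by 0.91 ± 0.34, 0.70 ± 0.29 and 0.71 ± 0.33 (SE), and Tnfrsf4, Tnfrsf9 and Tnfrsf18, receptors of the tumor necrosis factor family, differed by -0.42 ± 0.43, -0.33 ± 0.44 and -0.24 ± 0.35 (SE).

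Genes of the double-negative stages at which normal thymocytes carry CD25 were mostly higher in the Il2ra-high set, although none passed the adjusted test. Of 20 tested, 16 were higher and 4 lower (median difference 0.48), 6 were higher and 2 lower at an unadjusted p under 0.05 (2.93% and 3.15% of all genes), and with the GC slope as a covariate the count was again 16 and 4. Ptcra, the pre-T-cell receptor alpha chain, was 4.79, 6.04 and 6.38 against 1.37, 3.90 and 6.53. It was at 4.79 or above in all Il2ra-high libraries and in libraries 14 and 111 of the other set, and its slope was 0.54 ± 0.12 (SE) per log2 unit of Il2ra (r = 0.77, permutation p = 0.0009; rho = 0.69, permutation p = 0.0074; r = 0.67 without libraries 36 and 120; adjusted p = 0.208). The recombinase genes were also low in libraries 110 and 120. Rag1 was 4.87, 7.61 and 7.84 against 3.60, 6.26 and 7.61, and Rag2 was 2.72, 5.28 and 5.91 against 1.00, 3.58 and 5.98 (Rag2 r = 0.75, permutation p = 0.00211; rho = 0.72, permutation p = 0.0052; r = 0.70 without libraries 36 and 120; adjusted slope p = 0.208). Libraries 3 and 14, which sit on either side of the split, went against their sets in both recombinase genes. Library 3 had the lowest Rag1 and Rag2 of the Il2ra-high set, and library 14 the highest of the Il2ra-low set. All WT T-ALL libraries were below every thymus library for Rag1 (9.75 to 10.70) and Rag2 (6.21 to 6.79). Dntt, the terminal transferase that adds bases at receptor gene joins, was higher by 0.67 ± 0.24 (SE) and Cd27 by 0.69 ± 0.25 (SE). The members of the list that were lower were Kit, Cd44, Erg and Cd24a. Kit and Cd44 mark the earlier stage of the sequence. With the GC slope as a covariate the slope of Ptcra was 0.55, that of Rag2 0.57 and that of Kit -0.23, and within the 11 libraries other than 14, 36 and 48 they were 0.67, 0.78 and -0.31. Kit was 0.88, 1.26 and 2.35 against 1.75, 2.76 and 4.47 (r = -0.71, permutation p = 0.00444; rho = -0.85, permutation p = 0.00022; r = -0.85 without libraries 36 and 120; adjusted slope p = 0.208), and Cd44 was 1.56, 2.83 and 3.75 against 2.85, 3.45 and 5.95. The highest Kit was that of library 7, without which the difference of -1.33 became -1.05. The highest Cd44 values, 5.95 and 4.68, were those of libraries 110 and 108, which also had the highest neutrophil scores of the 14 (10.30 and 8.34). The difference of Cd44 was -0.96, and it was -0.24 with the neutrophil score as a covariate and -0.61 without library 110.

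Notch receptor and target genes were higher in 10 of 13 tested, with a median difference of 0.45, and in 11 of 13 with the GC slope as a covariate. The list shares Notch1, Notch3 and Ptcra with the double-negative genes. Dtx1, a Notch target and regulator, was 6.05, 6.76 and 7.58 against 4.03, 5.95 and 6.41, with 6 of 7 Il2ra-high libraries above every Il2ra-low one (1.29 ± 0.34 SE, adjusted p = 0.629; r = 0.69, permutation p = 0.00611; rho = 0.81, permutation p = 0.00079; r = 0.70 without libraries 36 and 120). Its lowest value was that of library 7, and without it the difference was 1.03. Its slope was 0.30, and 0.33 within the 11 libraries other than 14, 36 and 48. Nrarp, a Notch target and feedback inhibitor, was 3.18, 3.79 and 6.39 against 1.06, 2.38 and 4.29, and its top value came from library 36. Trib2, a pseudokinase and Notch target, was 4.03, 5.88 and 6.58 against 4.40, 4.59 and 5.22, with library 3 again the exception below the whole Il2ra-low set. The receptors themselves overlapped between the sets. Notch1 was 6.53, 7.02 and 7.44 against 5.75, 6.47 and 7.37 (adjusted p = 0.790), and Notch3 was 4.38, 5.21 and 5.39 against 3.17, 4.22 and 5.78 (adjusted p = 0.790). Hes1, a further Notch target, differed by 0.34 ± 0.25 (SE), and Myc by 0.04 ± 0.22 (SE), with 6.53, 6.69 and 7.55 against 6.14, 6.88 and 7.59. Lfng, which modifies the sugars of Notch receptors, and Notch2 and Igf1r were the 3 lower members. Lfng was 1.27, 1.91 and 3.08 against 1.96, 3.35 and 4.27, and Notch2 was 1.41, 1.94 and 2.71 against 1.96, 2.44 and 3.28. All 13 genes tested of this list failed the adjusted test.

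Genes of the T-cell receptor complex and its signaling were higher in the Il2ra-high set in 17 of 18, by a median of only 0.29, and again in 17 of 18 with the GC slope as a covariate. They include Cd5 and Cd6 above, and Ptpn22, a phosphatase that dampens receptor signaling, at 4.75, 5.65 and 6.72 against 4.33, 4.94 and 5.91 (r = 0.75, permutation p = 0.0018; rho = 0.77, permutation p = 0.00191; adjusted slope p = 0.208). The kinase genes Lck and Zap70 differed by 0.28 ± 0.20 and 0.18 ± 0.15 (SE). Pan-T-cell genes ran the same way, but they overlap with this list, and Lck belongs to both. The T cell content score, the mean log2 value of 7 genes such as Cd3e, Lck and Thy1, was 7.71, 8.24 and 8.57 in the Il2ra-high set and 7.36, 7.87 and 8.54 in the Il2ra-low set (r with Il2ra 0.68, permutation p = 0.00809; rho = 0.68, permutation p = 0.00873; adjusted p for r = 0.0890 over 11 library measures; r = 0.75 without libraries 36 and 120). In whole spleen, fewer leukemic cells and less RNA per cell cannot be told apart. With this score as a covariate, the slope of Ptcra went from 0.54 to 0.40, that of Rag2 from 0.59 to 0.36, that of Dtx1 from 0.30 to 0.22 and that of Cd5 from 0.19 to 0.16, and that of Lmo4 went from 0.34 to 0.43 with an adjusted p of 0.0342.

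Double-positive thymocyte genes were higher in 14 of 16, with a median difference of 0.33 (14 of 16 also with the GC slope as a covariate). The list shares Rag2, its largest difference, with the double-negative genes, so the counts of these lists are not independent. The co-receptors that define the stage were not among the larger differences. Cd4 was 1.90, 4.68 and 5.35 against 2.99, 3.97 and 6.30, and Cd8a was 4.64, 6.96 and 7.63 against 4.91, 6.75 and 7.22, both far below thymus (Cd4 8.31 to 8.86, Cd8a 9.01 to 9.57). Of the T-lineage transcription factors 15 of 19 were higher (14 of 19 with the GC slope as a covariate), with a median of 0.32, led by Ikzf2, Lef1 and Myb (0.55 ± 0.16 SE for Myb, adjusted p = 0.644), and the 4 lower were Ikzf1, Runx3, Id3 and Zbtb7b, which directs CD4 T cells (Zbtb7b 0.69, 1.37 and 1.83 against 0.85, 2.54 and 4.58; adjusted p = 0.758). Ikzf1, the gene of Ikaros and a tumor suppressor of T-ALL, was between 1.79 and 7.68 in the Il2ra-high set and between 6.14 and 7.90 in the Il2ra-low set (-1.01 ± 0.84 SE). Proliferation genes were 8 higher and 14 lower with a median of -0.04, and 6 went up and 16 down along the slope, 1 and 3 of 22 at an unadjusted p under 0.05, against 7.76% and 4.76% of all genes. With the GC slope as a covariate the count was again 8 and 14 between the sets, and 1 of 22 went up along the slope. Mki67 differed by 0.09 ± 0.23 (SE). Glycolysis and nutrient uptake genes were lower in 17 of 20, also with the GC slope as a covariate, by a median of -0.18, and 0 of 20 had an unadjusted p under 0.05, against 6.07% of all genes. Along the slope they were 9 up and 11 down, with 0 up and 2 of 20 down at an unadjusted p under 0.05, against 7.76% and 4.76% of all genes.

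Some of the other lists turned with the fit and some did not. Each is given as higher and lower between the sets, then with the GC slope as a covariate, then as up and down along the slope. Genes of NF-kappaB were 5 and 10, then 6 and 9, then 4 and 11. Activation response genes were 9 and 7, then 10 and 6, then 12 and 4. Checkpoint genes were 7 and 4, then 6 and 5, then 8 and 3. Egress and adhesion genes were 6 and 10, then 7 and 9, and turned to 11 and 5 along the slope. T-ALL oncogenes were 4 and 3, again 4 and 3, then 3 and 4. Tumor suppressors were 10 and 4, and 7 and 7 in both other fits. Interferon-stimulated genes were 8 and 5, turned to 4 and 9, and were 9 and 4 along the slope. Cytotoxic genes were 3 and 3, then 0 and 6, then 5 and 1.

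The genes lower in the Il2ra-high set included the early progenitor list, in which all 11 of 15 genes that could be tested were lower, by a median of -0.97 (-0.94 with the GC slope as a covariate, again all 11). At an unadjusted p under 0.05 there were 8 of 11, against 3.15% of all genes. Along the slope all 11 went down, 5 of them at an unadjusted p under 0.05, against 4.76% of all genes. None passed the adjusted test. The list holds Kit, Gfi1b, Bcl11a, Spi1, Tal1, Lmo2 and Lyl1. Gfi1b, a transcriptional repressor that acts in the erythroid and megakaryocyte lineages, was 1.18, 1.94 and 3.26 against 2.33, 3.19 and 4.13 (-1.32 ± 0.34 SE, adjusted p = 0.629). Bcl11a was 0.77, 1.62 and 2.80 against 2.05, 2.32 and 3.50 (-1.03 ± 0.32 SE, adjusted p = 0.695), and Tal1 and Lmo2, oncogenes of T-ALL that are also erythroid factors, differed by -0.98 ± 0.37 and -0.97 ± 0.33 (SE). The top value of both Gfi1b and Bcl11a in the Il2ra-high set was that of library 3. In thymus Gfi1b lay between 0.00 and 0.47 and Tal1 between 0.00 and 0.20.

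Markers of several other cells of the spleen went the same way as the progenitor genes. All 11 erythroid markers tested were lower in the Il2ra-high set (median -0.79), as were all 11 neutrophil markers (-1.53), all 11 macrophage markers (-0.72) and all 7 mast cell and basophil markers (-1.33, with Kit in this list too), and the counts were the same with the GC slope as a covariate. The neutrophil score ran from 4.07 to 6.82 in the Il2ra-high set and from 4.82 to 10.30 in the Il2ra-low set, the erythroid score from 3.58 to 6.52 and from 3.10 to 6.97, and the mast cell and basophil score from 0.50 to 1.26 and from 0.84 to 3.82, highest in libraries 110 and 108. Megakaryocyte markers were lower in 5 of 5, dendritic cell markers in 8 of 9 and endothelium markers in 4 of 5, whereas B cell markers were 1 higher and 1 lower and type 2 innate lymphoid cell markers 2 higher and 1 lower. Of 10 stroma markers 3 could be tested and all 3 were higher in the Il2ra-high set (median 0.31) and along the slope. They were Thy1, which T cells also express, Col1a2 (slope 0.45 ± 0.20 SE, adjusted p = 0.374) and Pdgfrb (slope 0.29 ± 0.13 SE, adjusted p = 0.392), while other defining stroma markers such as Col1a1, Col3a1 and Pdgfra stayed under 1.0 in all 14 libraries. The stroma score had an r of 0.60 with Il2ra (permutation p = 0.0233; rho = 0.41, permutation p = 0.145; adjusted p for r = 0.128 over 11 library measures; r = 0.61 without libraries 36 and 120), and its part in any result was not tested. Defining neutrophil markers such as S100a9 (median 9.77 and 11.06) were abundant in both sets. Along the continuous range the neutrophil, erythroid, macrophage and mast cell scores followed Il2ra weakly (r = -0.25 for neutrophil, -0.08 for erythroid, -0.31 for macrophage and -0.36 for mast cell and basophil, permutation p = 0.388, 0.796, 0.288 and 0.214; rho = -0.38, -0.20, -0.31 and -0.56, permutation p = 0.180, 0.484, 0.274 and 0.0380). Gata1 and Ermap of the erythroid list had slopes of -0.27 and -0.26, whereas the 3 hemoglobin genes of the same list had slopes of 0.12 to 0.17, 1 of which went to -0.08 once the GC slope was a covariate. When the erythroid score was a covariate, the slope of Gfi1b was -0.31, of Tal1 -0.21 and of Kit -0.32, and with the neutrophil score it was -0.32, -0.21 and -0.30, against -0.33, -0.23 and -0.32 without either. Spi1 and Lyl1 went from -0.24 to -0.11 and from -0.19 to -0.10 with the neutrophil score, and to 0.03 and -0.02 with the T cell content score. What part host cells had in the lower values of the progenitor list was not tested beyond these fits.

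**Figure D4:**
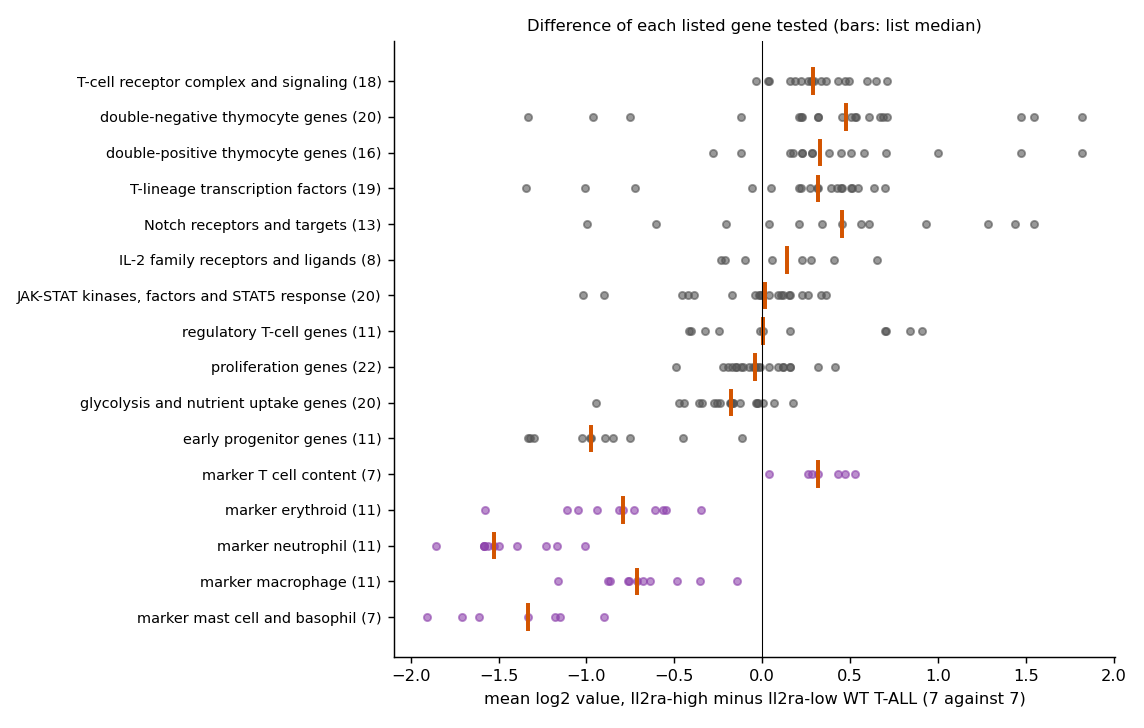
Difference in mean log2 value between Il2ra-high and Il2ra-low WT T-ALL for each tested gene of 16 lists (points, with the number tested in brackets) and the list median (orange bar); purple lists are cell type markers. T-cell receptor, thymocyte and Notch lists lie mostly above 0 with medians of 0.29 to 0.48, and the early progenitor list (-0.97) lies below 0 together with the erythroid, neutrophil, macrophage and mast cell markers. Some genes, such as Rag2, Lck and Kit, are shared between lists.

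The 4 genes that passed when the 5 highest were set against the 5 lowest libraries were Slamf6 (1.82, adjusted p = 0.0289), Dpp4 (1.32, adjusted p = 0.0342), Trp53inp1 (1.57, adjusted p = 0.0342) and Tesc (-1.88, adjusted p = 0.0462), all by limma. Slamf6 is a self-ligand receptor of lymphocytes, Dpp4 encodes the surface peptidase CD26, Trp53inp1 is a p53-induced gene and Tesc encodes the calcium-binding protein tescalcin. Over all 14 libraries Slamf6 was 4.73, 6.64 and 7.08 against 4.52, 5.24 and 6.57, and Tesc was 0.00, 0.58 and 0.85 against 0.54, 2.32 and 2.89. The libraries left out were 4, 3, 14 and 111. Of these, library 3 was lowest of its set for Slamf6, Dpp4 and Trp53inp1, and library 14 had the highest Slamf6 and Dpp4 and the lowest Tesc of the other set. With all 14 libraries these genes had adjusted p-values of 0.772, 0.790, 0.790 and 0.629, in the order named first, and with the T cell content score as a covariate the differences of Slamf6, Dpp4, Trp53inp1 and Tesc went from 1.05, 0.64, 0.89 and -1.44 to 0.54, 0.17, 0.60 and -1.04. Dpp4 turned to -0.01 when the GC slope was added to that score.

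**Figure D5:**
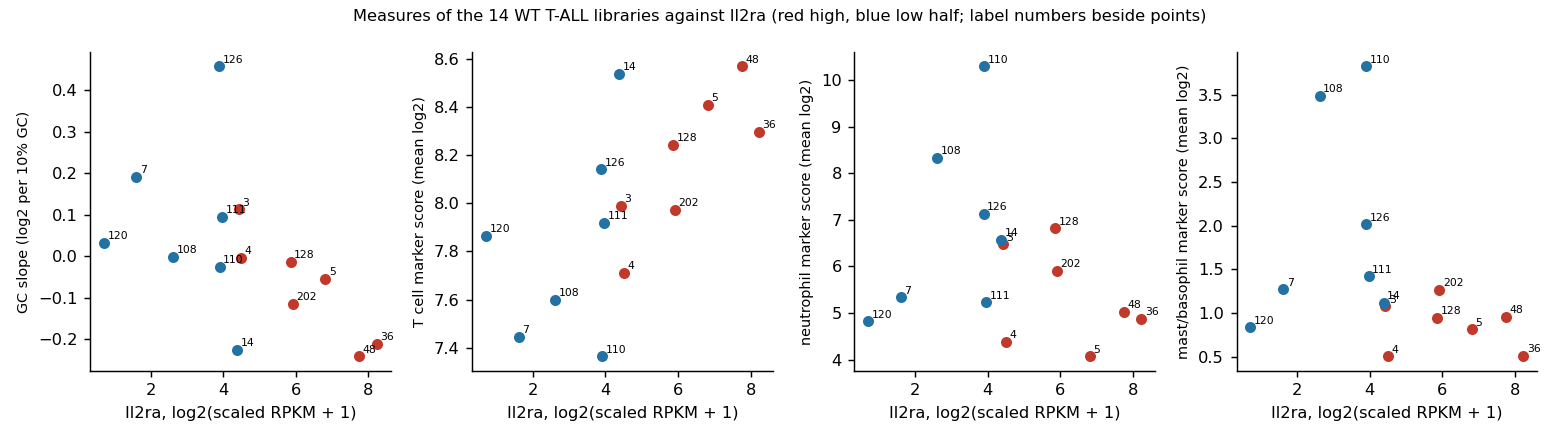
GC slope and mean log2 score of T cell, neutrophil and mast cell or basophil markers (vertical axes) against Il2ra (horizontal axes) in the 14 WT T-ALL libraries, each marked with its label number. Libraries 14, 36 and 48 have the lowest GC slopes (-0.23, -0.21 and -0.24), the T cell score climbs with Il2ra (r = 0.68), and libraries 110 and 108 have the highest neutrophil and mast cell scores.

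The samples not used for the ranking gave the following values. Over the 6 thymus libraries, where Il2ra spans only 3.78 to 5.57, Ptcra and Dtx1 ran with Il2ra (r = 0.90 and 0.91, rho = 0.94 for both, exact permutation p = 0.0208 for each r and 0.0167 for each rho), Cd5 showed no clear relation (r = 0.22, exact permutation p = 0.665; rho = 0.26, exact permutation p = 0.658), and Lmo4 ran the other way (r = -0.81, exact permutation p = 0.0528; rho = -0.60, exact permutation p = 0.242). These genes were picked after their values were seen, from 58 named genes of which 8 had an exact permutation p under 0.05 for r in thymus, and the p-values are not adjusted. Leaving out 2 libraries would leave too few for a further r. The thymus libraries also resembled each other in pairs. Controls 2 and 4 had the highest Il2ra (4.82 and 5.57) and mitochondrial shares of 7.30% and 8.11%, against 13.4% to 24.2% in the others. Controls 5 and 6 had the lowest Il2ra (3.78 and 3.88) and neutrophil scores of 1.79 and 1.71, against 2.76 to 3.41 in the others. The exact permutation takes the 6 libraries as independent and does not allow for this. In Notch3 KO T-ALL 1, 2 and 3, with Il2ra at 0.32, 1.23 and 3.79, Ptcra was 1.27, 5.29 and 5.57, Rag2 was 1.08, 5.56 and 2.36, Cd5 was 5.29, 3.19 and 4.89, and Gfi1b was 3.30, 4.51 and 4.54. With 3 libraries no order along Il2ra was tested.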

How the data were processed

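The authors sequenced stranded mRNA libraries (KAPA kits, paired-end reads on a HiSeq 2000) from total RNA, used ArrayStudio with its OSA aligner for mapping (mm10 transcripts) and quantification; versions are not given in the sources used here. The deposited table holds 24475 genes as log2 values. From the values themselves these are log2(scaled RPKM + 1), each library scaled to a 75th percentile of 10 (3.458 to 3.459 in log2). Counts were not used here, so no interval or detection limit that needs depth is given. Dates in place of 27 gene symbols were restored by gene identifier. Positions are from RefSeq on GRCm38.p6 (24375 genes, 99.6%, matched), GC contents from GENCODE transcripts (11013 of the 11475 genes tested).

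Genes reaching 1 scaled RPKM in 3 or more of the 14 WT T-ALL libraries were fitted with limma 3.58.1 (trend and robust, R 4.3.3), with the sets or with the log2 value of Il2ra as the term. Benjamini-Hochberg adjustment covered all 11475 genes and the threshold was 0.05. Correlations have two-sided permutation p-values (100000 resamples; exact for 6 libraries), and the adjusted p beside a gene's r is that of its limma slope. Each library is 1 animal. The fits were checked on simulated data. The sets, lists and tests were chosen with earlier results of these data known. Named genes were, in each direction, up to 8 without overlap between the sets whose higher set averaged 5 scaled RPKM or more, by p; the 5 highest and 5 lowest r among genes averaging 5 scaled RPKM or more; called genes; Il2rb, Il2rg, Notch1, Notch3, Hes1, Dtx1, Ptcra, Myc, Cd44, Cd4, Cd8a, Kit, Foxp3, Cish and Socs2; and genes within 1 Mb of Il2ra. Predicted, T-cell receptor, immunoglobulin, hemoglobin, ribosomal and small nucleolar RNA genes were left out. Other list members, and libraries 14, 36 and 48 as a set (GC slope below -0.2), were chosen after their values were seen. Alternatives covered offset, filter, normalization, covariates, the split and each library left out.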

Additional observations from a re-analysis of the deposited data

Results flagged for a closer look

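Among the named genes, 120 series of 7 values (60 genes in the Il2ra-high and Il2ra-low sets) were checked for a value far from the others of its set, and 13 were found; chance gives about 1 in 20. Of these, 6 were in library 3, the lowest of the Il2ra-high set: its Rag1 (4.87), Rag2 (2.72), Slamf6 (4.73) and Trp53inp1 (5.71) were far below, and its Gfi1b (3.26) and Mfsd2b (3.43) far above, those of the other 6 libraries of the set. Library 110 stood apart in the Il2ra-low set with low Cd8a (4.91) and high Socs2 (3.15) and Lag3 (4.14), and it also had the highest neutrophil score of the 14. In the Il2ra-high set the remaining values were the Nrarp of library 36 (6.39), the Socs2 of library 48 (2.65), the Foxp3 of library 5 (0.24) and the Itga8 of library 202 (0.0789), the last of these genes being near 0 throughout.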

How the results depend on the processing

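No paired analysis was possible because both sets lie in 1 labelled group and each label number occurs once. The split called 0 genes in 29 of 30 alternatives and 4 with 5 libraries against 5. The slope called 1 gene, and 0 without the low-value filter, after quantile normalization, without trend and robust, with the erythroid, mitochondrial or neutrophil covariate, with libraries 14, 36 and 48 as a batch, within the other 11 libraries, on the rank of Il2ra, with the GC slope (alone or with the T cell score) and after correction for GC and length; the last 3 were added after seeing the data. Leaving out 1 library at a time gave 0 to 2 genes; the gene called without library 120 was a predicted gene and not Lmo4. Of 3416 values of named genes under the alternatives, 3302 kept direction and call, and 21 lost and 5 gained a call. The sign changed in the rest. In 80 the value was within 1 SE of 0 in both fits, and in 8 it was farther from 0 in at least 1 of them. These 8 were the following. With the T cell score the difference of Cd3g was -0.11, and with GC slope and T cell score together those of Cd3g, Dpp4 and Ankrd16 were -0.219, -0.0126 and 0.244 and the slopes of Cd3g and Pfkfb3 -0.0183 and 0.00685. The difference of Ankrd16 ran from -0.0874 to 0.181 with 1 library left out, and the slope of Pfkfb3 was 0.0126 within the other 11. Cd3g is itself among the genes averaged in the T cell score, so its values with that score as a covariate carry no separate information. The cause of the other changes was not tested.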
